A study of Mus musculus with 4 samples.

Results

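The cytosolic ribosomal protein genes were examined as a group in differentiating 3T3-L1 cells. Members were taken by symbol: Rpl or Rps followed by a number, with Rplp0, Rplp1, Rplp2 and Rpsa added, and without the Rps6k kinases, Rps19bp symbols and pseudogenes marked -ps. A member also needed a probe set, that is, a group of short probes for 1 transcript, whose annotation gives its symbol alone. This left 49 of the 18194 genes named on the array, 26 of the large subunit and 23 of the small. A further 31 symbols of the family occur only on probe sets shared with other symbols and are given below as a group without gene names, so Rpl5, Rplp1, Rps23 and Rps27a, among others, are not analysed here by name.

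3T3-L1 is a mouse embryonic fibroblast line that can be turned into fat cells in culture. There were 4 cultures: 1 with an siRNA against aof2 (now Kdm1a, the flavin-dependent histone demethylase LSD1), 1 with an siRNA against rfk (riboflavin kinase), 1 given tranylcypromine, a drug that inhibits LSD1 and monoamine oxidases, and 1 with the control siRNA siGL3. All 4 were kept in medium with 25 mM glucose and 10% serum and were induced with insulin, dexamethasone and isobutylmethylxanthine, so the controls were under induction as well. The siRNAs preceded induction by 24 h and induction preceded harvest by 24 h. The drug was in the induction medium of its culture, for which the labels name no siRNA, no dose and no vehicle. Each culture went onto 1 Affymetrix array, made from 250 ng of total RNA, and the control is the same array in all 3 comparisons. Every value is therefore a single measurement with no replicate error, no test between conditions was possible, and "above" or "below" control describes these arrays only.

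Ribosomal proteins pack around the ribosomal RNAs to form the small subunit, which reads the messenger RNA, and the large subunit, which joins amino acids and lets the new chain out through a tunnel. Cells need them in matched amounts, and their mRNAs are among the most abundant in a growing cell. Most begin with a run of pyrimidines at the 5′ end, the TOP motif, through which the growth kinase mTORC1 and the protein Larp1 control how much of the mRNA is translated, and insulin is a known activator of mTORC1. Microarrays see the amount of mRNA, not its translation.

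Promoter sequences around the annotated start are shown first, because the pyrimidine run that marks the family lies there. They come from RefSeq (GRCm38.p6), which gave 51 promoters for 43 members and none for 6. A run of at least 10 pyrimidines within 20 bases of the start lay in 14 of the 51, or 27.5%, against 7.39% of all 32851 promoters. The longest run had 21 bases, in Rpl7a. In the following windows of 30 bases on the gene's strand, capitals mark the longest pyrimidine run. The search covered both sides of the start, so a run need not lie in the mRNA. Rpl7a, Rpl35, Rps10 and Rps18 are members of high signal whose run crosses the start. Rps25 is a member that lay below control, and its run lies wholly before the start, at -20 to -9. The paralogues Rpl3l and Rps27l have shorter ones of 5 and 9 bases, that of Rps27l also before the start, at -12 to -4. Among paralogues not shown, Rpl22l1 has a run of 10 after the start, and Rpl39l and Rpl7l1 have 7 and 3.
Rpl7a, chr2:26910792-26910821, plus strand: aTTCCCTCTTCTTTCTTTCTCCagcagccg
Rpl35, chr2:39005117-39005146, minus strand: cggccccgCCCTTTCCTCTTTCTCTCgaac
Rps10, chr17:27635230-27635259, minus strand: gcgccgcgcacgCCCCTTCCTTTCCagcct
Rps18, chr17:33955651-33955680, minus strand: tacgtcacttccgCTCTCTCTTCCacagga
Rps25, chr9:44407694-44407723, plus strand: TCCTTTTTTTCCgacatcttagcgaggctg
Rpl3l, chr17:24727811-24727840, plus strand: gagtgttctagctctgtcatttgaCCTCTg
Rps27l, chr9:66946071-66946100, plus strand: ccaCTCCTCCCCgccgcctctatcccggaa

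Further motifs were searched on both strands from 250 bases before to 50 bases after each start. CCGGAAG, the core bound by ETS factors, lay in 21 of the 51 promoters (41.2%), against 8.86% of all promoters. The shares were 7.84% against 2.75% for AAGATGGC (the YY1 core), 9.80% against 7.15% for the E-box CACGTG, and 11.8% against 13.6% for TATAAA. These matches describe letters and do not show binding.

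The targeted genes were low where their siRNA was given. Kdm1a had 681, 3471 and 3054 in the aof2 siRNA, rfk siRNA and tranylcypromine arrays, against 3494 in control, and Rfk had 2018, 573 and 2334, against 2122. The deposited values are MAS5 signals, linear intensities per probe set, and each array had been scaled: its mean, with 2% trimmed at either end, was 500.003. Of mature adipocyte markers, 3 of 6 on the array passed the filter on signal, their summed signal over all 6 being 5314, 6210 and 4988 in the treated arrays and 7857 in control. For fibroblast markers 8 of 9 passed, with sums of 78245, 79143 and 74153 against 77419. Among the adipocyte markers, the fatty acid carrier gene Fabp4 had 1301, 791 and 1093, against 2463 in control, and the lipase gene Lpl had 3919, 5317 and 3808, against 5272. The late markers Adipoq, with signals of 4.32 to 22.0, and Lep, with 2.74 to 5.03, were near the bottom of the scale on every array. Sums were 519, 339 and 634 against 463 in control for 6 macrophage, 82.4 to 114 against 59.4 in control for 4 endothelial and 354 to 421 against 338 for 5 epithelial markers. In bulk RNA, fewer cells of a type and less RNA per cell cannot be told apart.

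Ribosomal protein genes were among the brightest on the array. Of the 50 brightest compared genes by mean log2 signal, 26 were members, and 34 of the 100 brightest were. The median member signal was 25158, 26340 and 27062 in the aof2 siRNA, rfk siRNA and tranylcypromine arrays, against 23767 in the control array. Over all probe sets the median was 56.2, 53.4 and 55.6 against 53.3. The members took 4.92%, 4.99% and 5.01% of the signal of all named genes in the treated arrays, against 4.67% in control. Signals depend on each probe set's own probes and were not read as transcript amounts between genes.

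**Figure D1:**
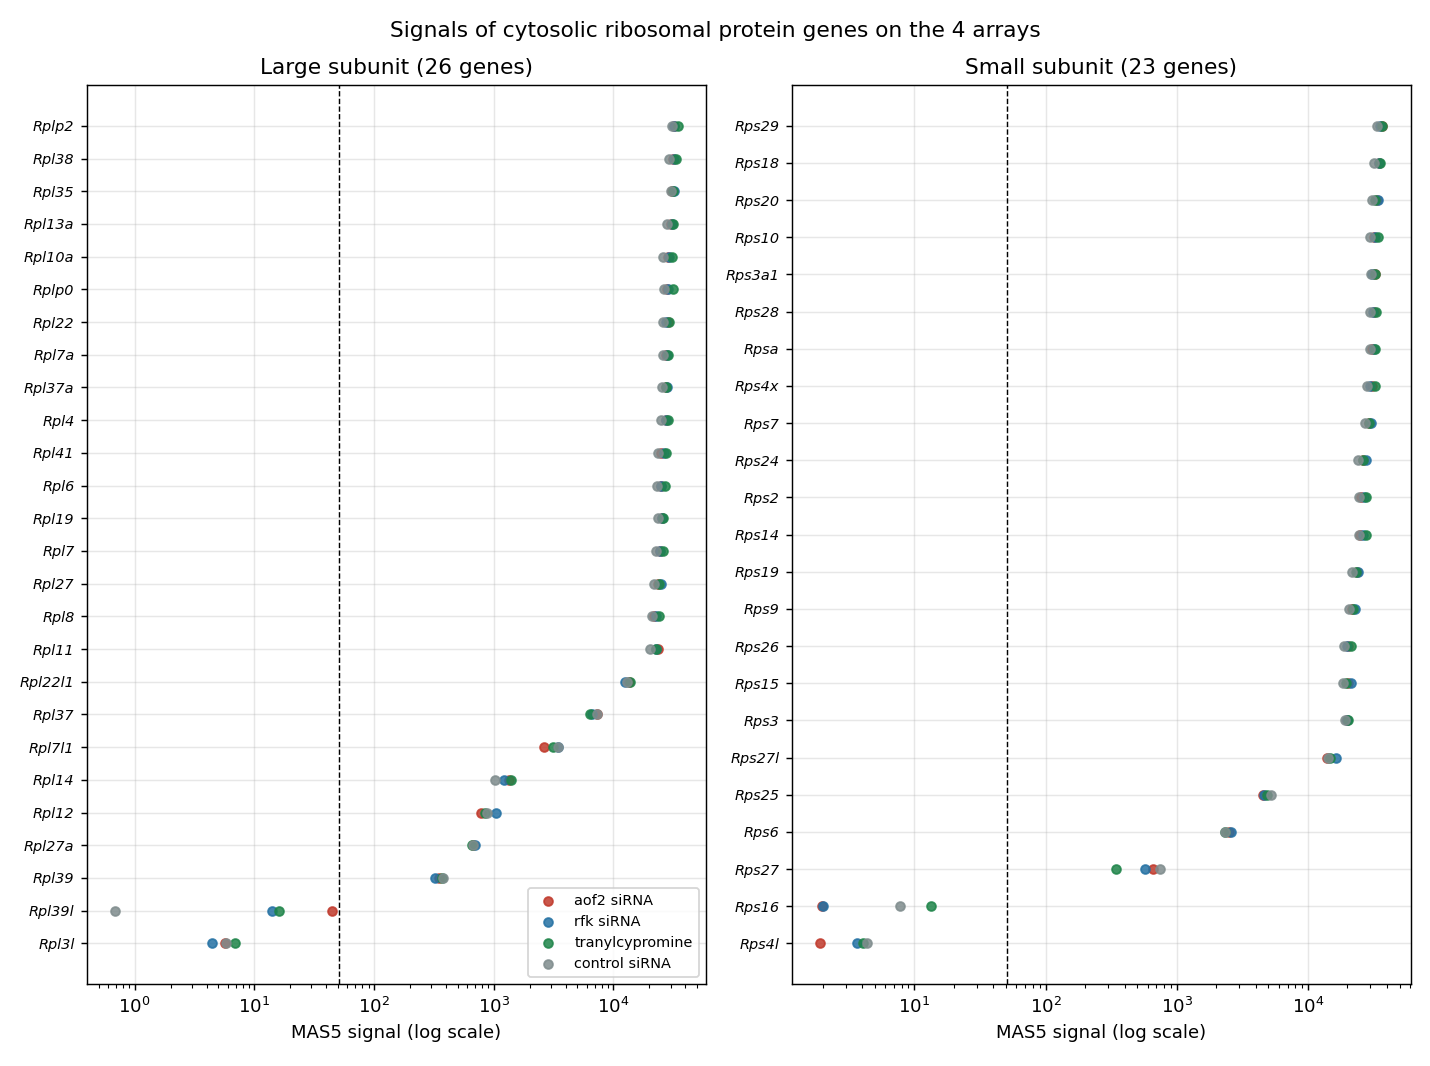
MAS5 signals (log scale) of the 26 large-subunit and 23 small-subunit genes on the 4 arrays, each point being 1 array and the dashed line the filter at a signal of 50.9. A total of 34 genes sit together at signals above 16384 with the control point at the left of each, 11 lie between there and the filter, and Rpl39l, Rpl3l, Rps16 and Rps4l lie below it.

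For comparisons a gene had to reach the median mean log2 signal of all probe sets, a signal of 50.9. This kept 45 of the 49 members, 24 of the large and 21 of the small subunit, and 10788 genes in all. The 4 that did not pass were Rps16, whose further probe sets are shared, and the paralogues Rpl39l, Rpl3l and Rps4l. Rpl39l, in mammals a testis-enriched relative of Rpl39, had 44.9 with aof2 siRNA, 13.97 with rfk siRNA and 16.1 with tranylcypromine, against 0.69 in control. All 4 values are below the filter, and no fold is given. Rpl3l, a striated-muscle form of Rpl3, had 5.70, 4.46 and 6.93, against 5.83. Rps4l had 1.91, 3.64 and 4.08, against 4.39.

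Members lay slightly above control in all 3 comparisons. The median log2 difference from control was 0.10 with aof2 siRNA, 0.12 with rfk siRNA and 0.14 with tranylcypromine, against -0.0041, -0.0089 and -0.016 over all compared genes. Above control were 38, 39 and 38 of the 45 members, with 7, 6 and 7 below, whereas 49.3%, 48.5% and 48.0% of all compared genes lay above. With each array centred on the brightest 10% of the other genes the medians were 0.08, 0.13 and 0.11, with 37, 39 and 37 members above control. That reference was not matched to the members in brightness. In the control array the brightest 10% of compared genes began at a signal of 4512, where the median member had 23767. After quantile normalization, which gives every array the same set of values, the medians were 0.0011, 0.0030 and -0.0028, with 23, 24 and 21 members above control, so the tranylcypromine median changed sign. Members were 26 of the 50 brightest compared genes, so they set much of the bright end to which the arrays were matched. Medians near 0 in that setting therefore do not show that the members were unchanged. With arrays centred on their median probe set, 28, 39 and 36 members were above and the medians were 0.021, 0.12 and 0.077, but the compared genes moved too, to -0.08, -0.01 and -0.08.

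Few members passed a fold threshold. At least 1.2-fold above control were 1 member with aof2 siRNA (Rpl14), 0 with rfk siRNA and 1 with tranylcypromine (Rpl14), where 19.5%, 15.1% and 20.5% of all compared genes passed. At least 1.2-fold below control were 1 member with aof2 siRNA (Rpl7l1), 1 with rfk siRNA (Rps27) and 1 with tranylcypromine (Rps27), where 15.7%, 16.2% and 20.1% of all genes passed. At 1.5-fold 0 members passed upward in any comparison (6.26%, 3.92% and 7.48% of all genes), and downward only Rps27 with tranylcypromine did (2.88%, 3.80% and 4.77%). Bright genes scattered less than dim ones: the SD over genes that are no members was 0.10, 0.11 and 0.23 at log2 signals of 14 or more, and 0.54, 0.51 and 0.60 below a log2 signal of 8.

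**Figure D2:**
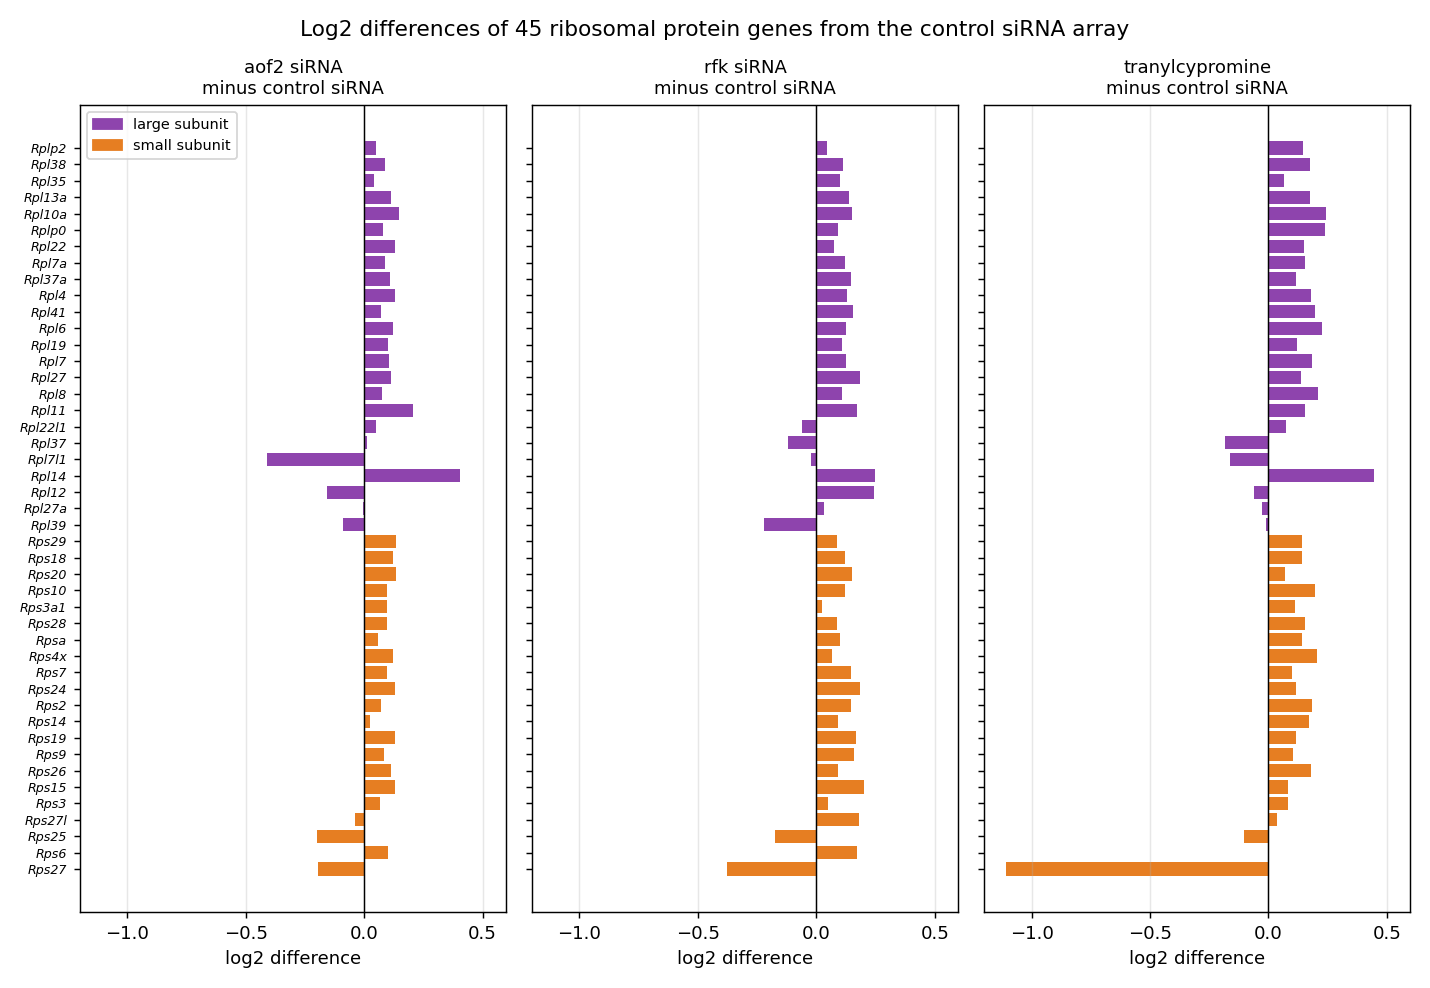
Log2 difference of each of the 45 members from the control siRNA array, by comparison and subunit, with genes of each subunit in order of mean signal from top to bottom. Bars of bright genes all point right and lie between 0.02 and 0.25, and the longest bars belong to the dimmer Rpl14, Rpl7l1 and Rps27; after quantile normalization the members' medians lie at 0.0011, 0.0030 and -0.0028.

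The difference was narrow and shared among the bright members. Of the 45 members, 34 had a mean log2 signal of at least 14, a signal of 16384, a line drawn after the values were seen, and 17 of these belong to each subunit. All 34 were above control in all 3 comparisons as deposited. Their medians were 0.10, 0.12 and 0.15, with an SD over genes of 0.035, 0.042 and 0.047. With aof2 siRNA they ran from 0.03 (Rps14) to 0.21 (Rpl11), with rfk siRNA from 0.02 (Rps3a1) to 0.20 (Rps15), and with tranylcypromine from 0.06 (Rpl35) to 0.25 (Rpl10a). In linear terms the median folds were 1.08, 1.09 and 1.11.

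Other bright genes lay above control as well. Of the 93 other genes at or above that signal, 74, 73 and 81 were above control with medians of 0.08, 0.09 and 0.14, and 57 were above it in all 3 comparisons. They were not matched to the bright members in brightness, with a median signal in the control array of 18975 against 25610. Their SDs over genes, given above, were wider than those of the members, and without Malat1, at -1.84 with tranylcypromine, that of the other 92 was 0.10, 0.11 and 0.11. They include Eef1a1, which carries aminoacyl-tRNA to the ribosome (28922, 29298 and 32488 against 27192), and the intermediate filament gene Vim (30434, 29586 and 31906 against 27865). Genes between log2 signals of 13 and 14 that are no members had medians of 0.02, 0.03 and 0.08, and those between 12 and 13 had -0.0087, 0.0062 and 0.01. The 4 probe sets of P1 cre, a hybridisation control added to every sample, had signals of 17489 to 28868 and medians of 0.13, 0.14 and 0.11. The array maximum was 36730, 35532 and 37112 in the treated arrays and 33479 in the control array. Poly-A controls (24 probe sets), also added and dimmer at signals of 110 to 4454, had medians of 0.27, 0.13 and -0.01. The bright added transcript was thus above the control array in all 3 comparisons, the dimmer ones with either siRNA, and whether the bright end of the control array reads low was not tested.

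**Figure D3:**
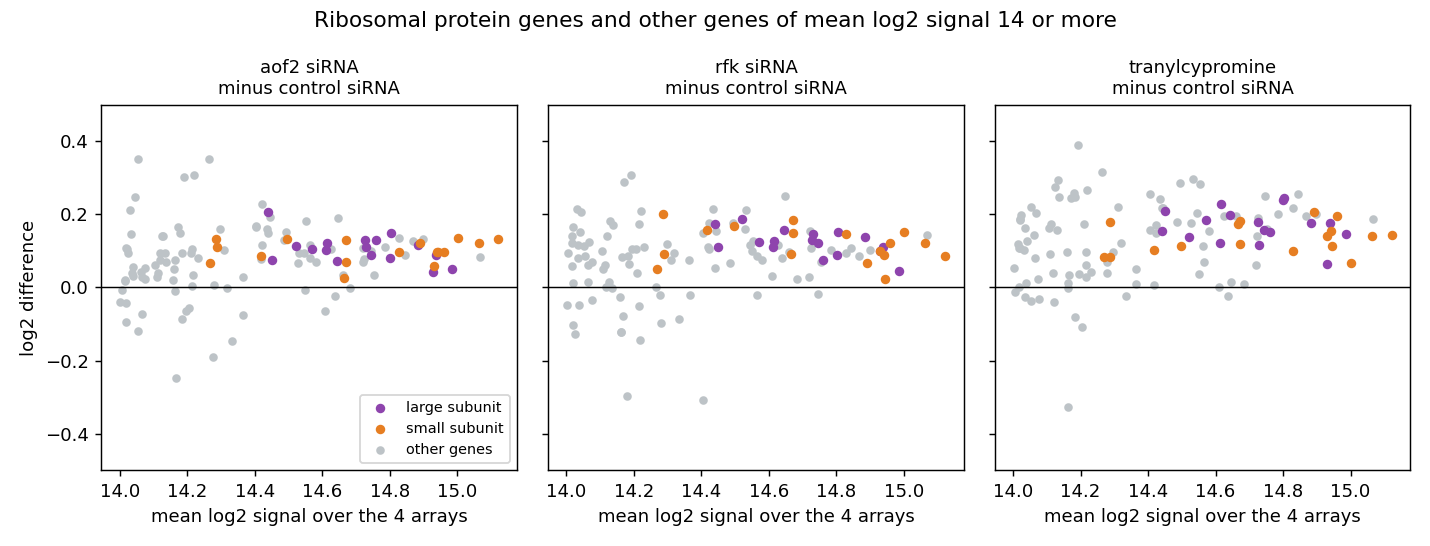
Log2 difference from the control siRNA array against mean log2 signal for the 34 bright members and the 93 other genes of mean log2 signal 14 or more, each point being 1 gene; 1 other gene at -1.84 with tranylcypromine (Malat1) lies outside the axis. Members form a band above 0 within the wider cloud of other bright genes, whose medians are 0.08, 0.09 and 0.14, and quantile normalization brings the members' medians to 0.0011, 0.0030 and -0.0028.

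In the order of the 4 arrays, control was lowest for 36 of the 45 members, where it was lowest for 22.9% of all compared genes. For the 34 bright members it was lowest in all 34. The tranylcypromine array was highest for 26 of the 45, the rfk siRNA array for 13, the aof2 siRNA array for 2 and the control array for 4. In the small subunit the tranylcypromine array was highest for 11 and the rfk siRNA array for 8 of 21, and in the large subunit for 15 and 5 of 24.

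The median log2 difference was 0.09 for large and 0.10 for small subunit genes with aof2 siRNA, 0.12 and 0.12 with rfk siRNA, and 0.15 and 0.11 with tranylcypromine. Large minus small came to -0.0082, -0.0036 and 0.038, and among bright members to 0.0079, 0.0046 and 0.036. With either siRNA the sign of this gap changed with the setting. With tranylcypromine it was positive in every setting run, at 0.035 to 0.045. With 1 array per group none of these gaps could be tested.

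The ribosomal stalk is the flexible arm of the large subunit that recruits elongation factors. Rplp0, its base, had 28105, 28310 and 31381 in the aof2 siRNA, rfk siRNA and tranylcypromine arrays, against 26598 in control. Rplp2, which binds to it with Rplp1, had 32228, 32073 and 34444, against 31099, the highest mean signal among large-subunit members. For both the tranylcypromine array stood highest, at log2 differences of 0.24 and 0.15, and the siRNA arrays lay between 0.04 and 0.09.

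Rpl11, which joins Rpl5 and the 5S RNA in the particle that binds Mdm2 when ribosome assembly fails, had 23384, 22842 and 22540, against 20254 in control. It was the bright member furthest above control with aof2 siRNA, at 0.21, with 0.17 and 0.15 in the others, and the only bright member highest in the aof2 siRNA array. Of the members that passed the filter, Rpl37 was the other one highest there, at 7298, 6650 and 6359 against 7229, where the aof2 siRNA and control arrays were nearly level.

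Around the exit tunnel, Rpl4 had 27476, 27507 and 28443, against 25130 in control. Rpl19 had 25379, 25522 and 25732, against 23637, and Rpl35 had 31000, 32285 and 31492, against 30119. All 3 were above control on every treated array, by 0.04 to 0.18. Rpl39, a short protein that lines the tunnel, did not follow them, with 353, 322 and 372, against 375, and was below control in all 3 comparisons. Its probe set was the dimmest of those that passed.

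Among other large-subunit members at the ends of the range, Rpl10a had 28855, 28904 and 30844, against 26022, and its difference of 0.25 with tranylcypromine was the highest of the bright members. Rpl6, a surface protein of the subunit, had 25119, 25219 and 27062, against 23102. Rpl27 had 23594, 24802 and 24000, against 21799. Rpl38, which in mice is needed for translation of Hox mRNAs, had 31301, 31775 and 33229, against 29413. The remaining bright large-subunit members, Rpl7a, Rpl8, Rpl13a, Rpl37a and Rpl41, lay between 0.07 and 0.21 above control.

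In the small subunit, Rps2 and Rps3 line the channel by which mRNA enters and Rps15 sits near the decoding site. Rps2 had 25552, 26972 and 27634, against 24345 in control. Rps3 had 19982, 19740 and 20182, against 19062, and was the dimmest of the bright members. Rps15 had 20363, 21365 and 19677, against 18588, with its largest difference, 0.20, under rfk siRNA. All were above control in each comparison, and none reached 1.2-fold.

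A list of 11 genes mutated in Diamond-Blackfan anaemia, a human failure of red cell production, was used. It gave 7 members, Rpl11, Rps7, Rps10, Rps19, Rps24, Rps26 and Rps29. The list does not hold every gene reported for the disease, so the values describe these 7 only and not the disease genes as a class. Rps19, the most often mutated, had 23572, 24167 and 23286, against 21509. Rps24 had 26518, 27506 and 26282, against 24213, and Rps26 had 20232, 19936 and 21196, against 18727. Rps7 had 29354, 30347 and 29373, against 27422, and Rps10 had 31734, 32254 and 33955, against 29664. Rps29 had 36730, 35532 and 36963, against 33479, and was the brightest member. These 7 lay between 0.09 and 0.21 above control. Apart from Rpl11 with aof2 siRNA, the highest of all bright members in that comparison, these values lie inside the range of the other bright members.

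Rps4x, encoded on the X chromosome, had 30891, 29726 and 32707, against 28368, and its 0.21 with tranylcypromine was the highest of the small subunit. Rps20 had 33886, 34248 and 32345, against 30854, and led the small subunit with aof2 siRNA at 0.14. Rps18 had 34850, 34855 and 35323, against 32061. Rps14 had 25158, 26340 and 27852, against 24699, so its difference was 0.03 with aof2 siRNA and 0.17 with tranylcypromine. Rps3a1 had 32374, 30767 and 32745, against 30258. The rest of the bright small-subunit members, Rps9, Rps28 and Rpsa, which is also known as a laminin receptor, lay between 0.06 and 0.16.

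Rps6, the substrate of the S6 kinases and the classical readout of mTORC1, had 2484, 2607 and 2317, against 2314 in control. Its differences were 0.10, 0.17 and 0.0019, and it was the only member other than Rpl14 among the 11 dimmer ones at which the control array was lowest. A second, dimmer probe set gave 0.77, 0.20 and 0.24, and 9 more probe sets carrying its symbol are shared with others.

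The 11 members represented by a dimmer probe set did not share the small difference. Their medians were -0.04, -0.02 and -0.03, and 4, 5 and 4 of them (36.4%, 45.5% and 36.4%) were above control, beside 49.3%, 48.5% and 48.0% of all genes. They are Rpl12, Rpl14, Rpl22l1, Rpl27a, Rpl37, Rpl39, Rpl7l1, Rps25, Rps27, Rps27l and Rps6. Of the 11, 8 also have probe sets shared with other symbols that were left out, and 3 are paralogues. Low signal here belongs to the probe set used and need not belong to the gene.

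Rps27 differed most. It had 655, 577 and 348 in the aof2 siRNA, rfk siRNA and tranylcypromine arrays, against 750 in control, differences of -0.20, -0.38 and -1.11. The tranylcypromine array stood well below the other 3, at 46.3% of control. Rps27l, a p53-inducible paralogue, had 13944, 16240 and 14667, against 14310, and its 3 probe sets lay between -0.05 and 0.18. Rps27 has 1 probe set of its own and 1 shared with other symbols.

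Rpl14 was the member furthest above control, at 1355, 1215 and 1390, against 1022, or 0.41, 0.25 and 0.44. All 3 treated arrays were higher than the control array. It has 1 own probe set and 5 shared ones. Rpl7l1, which takes part in ribosome assembly, was furthest below with aof2 siRNA, at 2610, 3413 and 3100, against 3465, or -0.41, -0.02 and -0.16. A second probe set of Rpl7l1 above the filter gave -0.25, 0.05 and -0.14. Its parent Rpl7 had 24378, 24701 and 25724, against 22648, above control throughout.

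Rps25, which is needed for initiation on some viral internal entry sites, had 4558, 4627 and 4863, against 5225 in control, and was below control in all 3 comparisons. Rpl12 had 788, 1043 and 845, against 880, below control with aof2 siRNA and tranylcypromine and 0.25 above it with rfk siRNA. Rpl27a had 675, 693 and 665, against 678, with no more than 0.03 between any treated array and control. Rpl22l1, a paralogue that in mice is repressed by Rpl22, had 13478, 12459 and 13708, against 13007, and Rpl22 had 28562, 27505 and 28986, against 26098. For both the rfk siRNA array was the lowest of the treated arrays. In all 3 comparisons Rpl39, Rpl7l1, Rps25 and Rps27 were below control, and 36 members were above.

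Probe sets left out for carrying several symbols gave the same picture. There were 110, with 46 symbols of the family, 31 of which occur only there, and 106 passed the filter. Their median log2 differences were 0.11, 0.13 and 0.15, with 96, 94 and 91 of 106 above control. All 72 of them with a mean log2 signal of at least 14 were above control in all 3 comparisons, with medians of 0.10, 0.13 and 0.17. Their annotation gives several symbols, so they were not tied to 1 gene, and 43 of the 110 end in _x_at, the array maker's mark for probes that may match other transcripts. Among members, 22 have more than 1 own probe set above the filter, and these lay apart by a median of 0.10, 0.15 and 0.18, as much as the differences from control. All were on 1 side of control in 20, 19 and 16 genes. The widest gap was in Rps18, at 2.61, 2.65 and 1.88, where the dimmest probe set that passed had a signal of 55.6 and the brightest 34247.

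Log2 differences of members with and without each motif were set side by side. The 14 with a pyrimidine run had medians of 0.09, 0.12 and 0.14, and the 26 without one had 0.10, 0.14 and 0.12. The 20 with CCGGAAG had 0.08, 0.11 and 0.13, and the 20 without it 0.11, 0.13 and 0.13. The 4 with CACGTG had 0.12, 0.15 and 0.15, and the 36 without it 0.09, 0.12 and 0.13. The 6 with TATAAA had 0.07, 0.08 and 0.15, and the 34 without it 0.10, 0.12 and 0.12. The 4 with AAGATGGC had -0.04, 0.03 and -0.0044, against 0.10, 0.12 and 0.13 for the 36 without it, and they are Rpl13a, Rpl22, Rpl7l1 and Rps27. These 4 were split. The bright Rpl13a and Rpl22 lay between 0.08 and 0.18, and the dimmer Rpl7l1 and Rps27 between -1.11 and -0.02. These are members that passed the filter and have a promoter in the table.

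Other genes of translation were set beside the members as lists, with the same counts of genes above control, for which the background was 49.3%, 48.5% and 48.0%. Some genes are in several lists, so the lists are not separate sets of values. The TOP list shares Eef1a1, Eef1b2, Eef1d and Eef2 with the elongation list. It shares Eif3e, Eif3f, Eif3h, Eif4b and Pabpc1 with the initiation list and Npm1 with the biogenesis list, and it holds Fau. The 17 other genes with a TOP start had medians of 0.09, 0.08 and 0.11, with 14, 14 and 15 above control. With quantile normalization these became 0.03, -0.02 and 0.02. Eif4b, a helicase cofactor of initiation, led them, at 9383, 8599 and 9942, against 7297, and Hnrnpa1 was lowest with aof2 siRNA at 7062, 8209 and 7695, against 7917. The 9 genes of the elongation list had medians of 0.09, 0.11 and 0.15, with 7, 7 and 8 above, and 0.04, 0.06 and 0.06 after quantile normalization. They include Eef2k, a kinase of Eef2, and Eef1e1, which are no elongation factors. Eef2k lay above control and Eef1e1 below it in each comparison. Fau, which encodes the small-subunit protein eS30 outside the symbol rule, had 24413, 24521 and 25906, against 23263.

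The 34 initiation factor genes had medians of -0.0088, 0.04 and 0.05, with 17, 23 and 25 above control. Centring on the median turned the last to -0.0092. Eif5, which triggers GTP hydrolysis at the start codon, had 7254, 8435 and 7677, against 5576, or 0.38, 0.60 and 0.46, of which those with rfk siRNA and tranylcypromine exceed the highest member's, 0.25 and 0.44. Eif3i had 14433, 14552 and 14819, against 11045. Eif5b, which joins the subunits, had 1254, 1414 and 804, against 1423, a log2 difference of -0.82 with tranylcypromine.

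Genes that build ribosomes lay on either side of control, depending on the treatment. Among 54 ribosome biogenesis and nucleolar genes, 15, 40 and 24 were above control, and the median was -0.13 with aof2 siRNA, 0.11 with rfk siRNA and -0.02 with tranylcypromine. At least 1.2-fold above control were 1, 11 and 7, and at least 1.2-fold below were 8, 1 and 10, where the background was 19.5%, 15.1% and 20.5% above and 15.7%, 16.2% and 20.1% below. The aof2 siRNA median stayed below 0 (-0.21 to -0.13) and the rfk siRNA median above it (0.11 to 0.19) under each of 5 other scalings, offsets or references. Fbl, the methyltransferase fibrillarin that modifies ribosomal RNA, had 4646, 7933 and 6341, against 5936, so that the aof2 siRNA array was lowest and the rfk siRNA array highest. Noc3l had 566, 762 and 650, against 805, and Nop14 had 991, 1201 and 1049, against 882. Rrp1b ran the other way, at 2616, 1543 and 2858, against 1882. Wdr43 had 2144, 2702 and 1687, against 2560.

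For RNA polymerase I, which transcribes the large ribosomal RNA precursor, 4, 11 and 5 of 15 genes were above control, with medians of -0.06, 0.08 and -0.15. Polr1a, its largest subunit, had 1073, 1313 and 782, against 1239. Rrn3, the initiation factor TIF-IA, had 852, 1203 and 974, against 1084. Ubtf, which opens ribosomal DNA for transcription, had 1407, 1084 and 1436, against 1033, and Taf1c had 155, 157 and 278, against 150. The array's control probe sets for 18S ribosomal RNA (3) had medians of 0.10, 0.08 and -0.06. They were not read as an amount of ribosomal RNA.

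**Figure D4:**
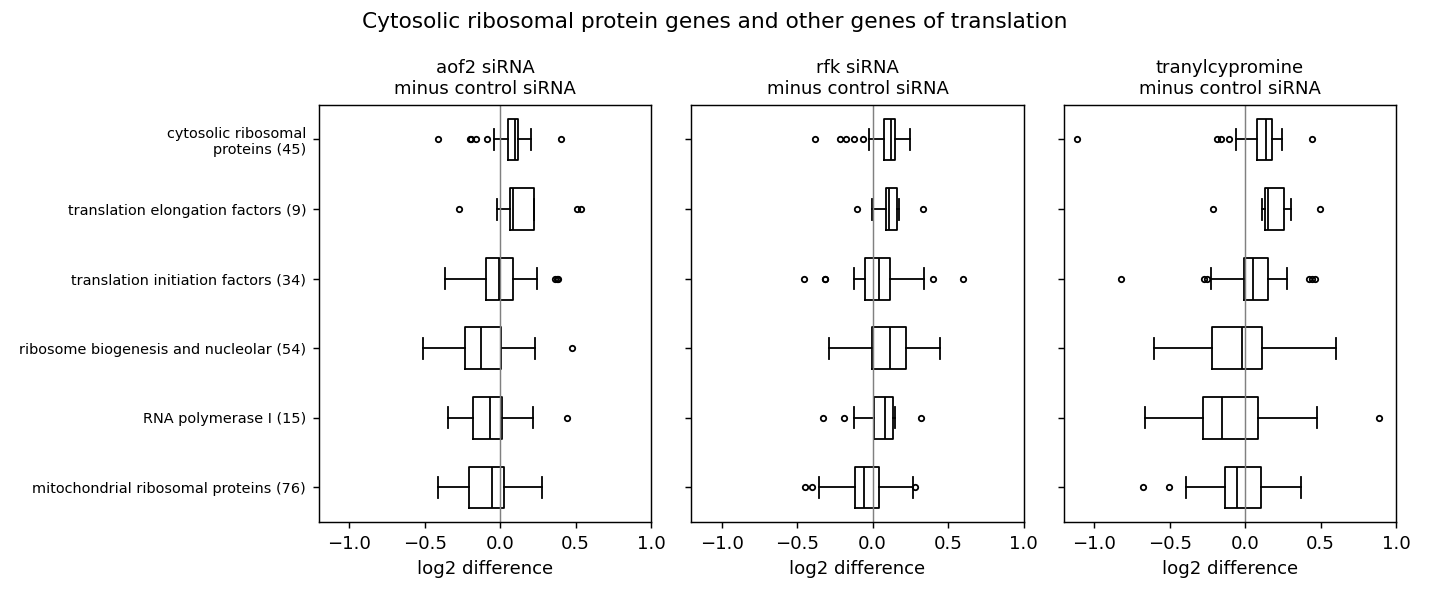
Log2 differences from the control siRNA array for the 45 members and for 5 lists of other translation genes, with the number of genes in brackets; boxes span the quartiles, the line is the median, whiskers reach the last gene within 1.5 box lengths and circles are genes beyond. The members' box is narrow and right of 0 in each comparison (its medians become 0.0011, 0.0030 and -0.0028 after quantile normalization). The ribosome biogenesis median lies left of 0 with aof2 siRNA and right of it with rfk siRNA, and in both the box reaches 0.

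Mitochondrial ribosomal protein genes, which serve the separate ribosome of that organelle, had a median of -0.05 in each comparison, with 24, 31 and 33 of 76 above control. Against the mean of the 3 other arrays these medians were -0.06, 0.0047 and 0.01, so the last pair changed sign. Mrpl9 had 1929, 1896 and 1762, against 2501, and Mrps18b had 1448, 1711 and 1773, against 1410. Mrpl33 had 5925, 5029 and 3068, against 4898, so its tranylcypromine value was the lowest. For mTORC1 and S6 kinase signalling, 7, 10 and 10 of 18 genes were above control and the medians were -0.05, 0.01 and 0.06. Eif4ebp2, a repressor of cap-dependent initiation, had 986, 1522 and 1035, against 1345. Its brighter relative Eif4ebp1 had 7182, 7047 and 7990, against 5677, and so lay above control in each comparison. Mycn, a transcription factor that drives ribosome genes, had 83.1, 146 and 60.3, against 14.1. Its control signal is below the filter, which the gene passed through the treated arrays, so no fold is given. Among 10 genes listed for ribosome quality control and rescue, 1, 3 and 4 were above control, with medians of -0.19, -0.09 and -0.09. The list also held Ddit4, an inhibitor of mTORC1 and not a rescue factor, at 12043, 10069 and 12099, against 10082. Ddit4 was the only gene of the list above control with aof2 siRNA, and was above it with tranylcypromine as well. Gtpbp2, which helps to free stalled ribosomes, had 367, 391 and 407, against 539, and Pelo, which splits them, had 185, 280 and 284, against 233.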

How the data were processed

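The authors deposited signal intensities, 1 column per array, made with MAS5 per the submitters' processing notes. The MAS5 version and scaling target are not given in the sources here, detection calls were not used, and equal trimmed means conceal any change in RNA content per cell.

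Intensities were log2-transformed without an offset. Genes were named from the platform annotation, probe sets with several symbols were not named, and a gene's brightest probe set by mean log2 signal stood for it. Differences are a treated array minus the control array. With 1 array per group there is no test, p-value or SE, so counts and medians stand beside those of the 10788 compared genes. The members, gene lists, thresholds of 1.2-fold and 1.5-fold and alternatives were chosen with earlier results of these data known. Genes named are the targeted genes, the 3 highest and 3 lowest members of each subunit per comparison, the 2 brightest and 2 dimmest, paralogues, members with listed roles, and from the 2 highest and 2 lowest of each other list. Others, such as Rps14, Vim, Malat1 and Fbl, were picked with their values in view. The steps were tested on simulated data, in Python 3.11.15 with NumPy 2.4.6, pandas 2.3.3 and matplotlib 3.10.9. There the members were shifted on both siRNA arrays by more than the medians found here. Recovery of differences as small as those found was not tested.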

Additional observations from a re-analysis of the deposited data

How the results depend on the processing

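No paired analysis was possible because each group has 1 array, and for the same reason no replicate could be left out. Values are in the order aof2 siRNA, rfk siRNA and tranylcypromine unless 1 comparison is named. The median difference of members was 0.021 with aof2 siRNA and 0.077 with tranylcypromine when arrays were centred on their median probe set, and 0.0011, 0.0030 and -0.0028 after quantile normalization, which left 23, 24 and 21 of 45 above control. Against the mean of the 3 other arrays it was 0.016, 0.034 and 0.073. Large minus small subunit turned to 0.010 with aof2 siRNA after quantile normalization and to 0.0079 among bright members. With rfk siRNA it turned to 0.014 without probe sets ending in _x_at or _s_at, 0.016 with no filter, 0.0020 with a stricter filter, 0.013 without paralogues, 0.0062 with Fau added and 0.0046 among bright members. Members at least 1.2-fold above control numbered 6, 6 and 4 with the mean of all probe sets, 2, 1 and 3 without _x_at and _s_at probe sets, and 2, 1 and 3 with no filter. They numbered 1 with rfk siRNA after quantile normalization, and 1 with rfk siRNA and 0 with tranylcypromine against the other 3 arrays. Members at least 1.2-fold below numbered 3 with aof2 siRNA after centring on the median, 2 and 2 with rfk siRNA and tranylcypromine with the mean of probe sets, 2 with tranylcypromine without _x_at and _s_at, 3 and 4 with aof2 and rfk siRNA with no filter, 0 with rfk siRNA against the other 3 arrays, and 0 with aof2 siRNA without paralogues. At 1.5-fold 0 were above with aof2 siRNA and tranylcypromine and 0 below with either siRNA. Among bright members 0 passed 1.2-fold in any comparison, a set chosen after the values were seen. With 1 array per group, the error of so small a difference is unknown.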
